A study of Mus musculus with 18 samples.

Results

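The genes described here are the cytosolic ribosomal protein genes of mouse bone marrow-derived macrophages, the proteins from which, with ribosomal RNA, the large and the small subunit of the ribosome are built. Rows were chosen by symbol (Rpl or Rps with a number and at most 1 letter, Rplp0, Rplp1, Rplp2 and Rpsa) and selected on raw counts, with at least 50 in each of the 18 libraries. Of 45706 rows, 82 had such a symbol (50 for the large and 32 for the small subunit), and 43 of the 82 passed the floor, 25 of the large and 18 of the small subunit. These 43 are the members. The study set macrophages of the genotype RelA-TA-KI, in which the Rela gene of the NF-kB family carries a knock-in, beside wild-type (WT) macrophages, to ask how RelA activates its targets in inflammation. Both groups were C57BL/6 cells grown from bone marrow in medium with 30% L929-conditioned medium. The cells received LPS, a bacterial agonist of TLR4, at 100 ng/ml, or the cytokine TNF at 10 ng/ml, for 0.5, 1, 3 or 8 h, or were left unstimulated. The labels give an age of 12 days to all libraries while the protocol describes use on day 7 of culture, and they do not describe the allele further. Each genotype had 1 library for each of the 9 conditions, 9 libraries per genotype, and no separate animals or cultures were named.

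Ribosomal protein mRNAs are among the most abundant mRNAs of a growing cell. In vertebrates many of them begin with a C followed by a run of pyrimidines, the 5′ terminal oligopyrimidine or TOP motif, through which mTOR and the RNA-binding protein Larp1 set how strongly they are translated, so the amount of the mRNA and the amount of protein made from it can part. The mouse genome also holds a large number of processed pseudogenes of these genes, which are intronless copies of their mRNAs.

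Totals ran between 4663650 and 6721917 counts per library, of which the members held 15767 to 37067. All 10 macrophage markers were present, with summed levels of 11584 to 17725 CPM in RelA-TA-KI and 11589 to 16513 CPM in WT libraries. Lymphocyte, erythroid and mast cell markers summed to at most 4.72 CPM in any library, and 2 of the 4 mast cell markers were at 0 throughout. Rela had 376 to 1327 raw counts per library. What the knock-in does to the Rela transcript is not described in the labels, so these counts do not check the genotype labels. Tests took their spread from how the genotype pairs differed over conditions. Their p-values measure only the spread between these libraries, and genotype cannot be told apart from culture. In bulk RNA fewer cells of a type and less RNA per cell cannot be told apart either.

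How much of a ribosomal protein gene was counted went with how much of its coding sequence occurs in no other gene. Reads were 50 bases long, so each coding sequence was cut into all its 50-base stretches (GENCODE M21, GRCm38), and each stretch was looked for in every other annotated transcript. The share of stretches with no exact copy elsewhere had a median of 18.5% over the 43 members and of 0% over the 37 rows below the floor that have a coding transcript. It was 0% for 1 member, Rpl41, and for 28 of those 37 rows. It was above 50% for 11 members and for 3 rows below the floor, Rpl3l, Rpl39l and Rpl10l. With up to 1 mismatch allowed, the median number of pseudogenes that shared a stretch was 10 for members and 15 for the rows below the floor. Over the 80 rows, Spearman's rho of this share with the mean count was 0.687, and 0.675 over the 43 members. Genes are not independent replicates, and the floor itself was set on these counts. The following stretches show the range, written 5′ to 3′ on the coding strand, with the base at which the nearest copy differs in capitals. No other gene holds the first stretch, even with 1 mismatch allowed.
Rpl4, chromosome 9, coding bases 604 to 653: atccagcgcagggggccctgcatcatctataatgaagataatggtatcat
In the next pair a pseudogene differs by 1 base, Rps24-ps3 for Rps24 and Gm5905 for Rps9.
Rps24, chromosome 14, coding bases 224 to 273: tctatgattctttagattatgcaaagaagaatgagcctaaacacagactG
Rps9, chromosome 7, coding bases 209 to 258: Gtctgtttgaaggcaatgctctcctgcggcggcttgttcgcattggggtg
The last set has exact copies, in 2 other genes for Rps27, 1 for Rps6 and 4 for Rpl41.
Rps27, chromosome 3, coding bases 102 to 151: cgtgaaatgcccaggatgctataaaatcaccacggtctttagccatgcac
Rps6, chromosome 4, coding bases 349 to 398: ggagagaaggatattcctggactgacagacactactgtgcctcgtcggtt
Rpl41, chromosome 10, coding bases 13 to 62: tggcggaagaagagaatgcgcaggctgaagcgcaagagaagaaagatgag

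Rpl4, with 79.7% of its stretches without a copy, had 1514 to 4386 raw counts per library, while Rps27 had 0 to 8 and Rps6, the substrate of the S6 kinases, had 1 to 6. Rps27a, which encodes a fusion of ubiquitin with a ribosomal protein, had 4 to 26. Rpsa, the laminin-receptor-like protein of the small subunit, had 5 to 34 and is therefore no member. A low count of such a row says nothing about the amount of its mRNA, since how the authors counted reads that match several genes is not given in the sources used here. Rpl41 passed the floor with 244 to 410 counts although none of its coding stretches is free of an exact copy. Its coding sequence has only 75 bases, or 26 stretches, in a transcript of 582 bases. For every row the share leaves out the untranslated parts, from which reads can also come. The counts of Rpl41 may hold reads of its copies or fall short of its own, and its values are uncertain. The same holds for other members with low shares, such as Rpl13a (2.5%, 587 to 1760 counts) and Rpl3 (4.3%, 90 to 277 counts). For the same reason levels are compared below between libraries and not between genes.

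**Figure D1:**
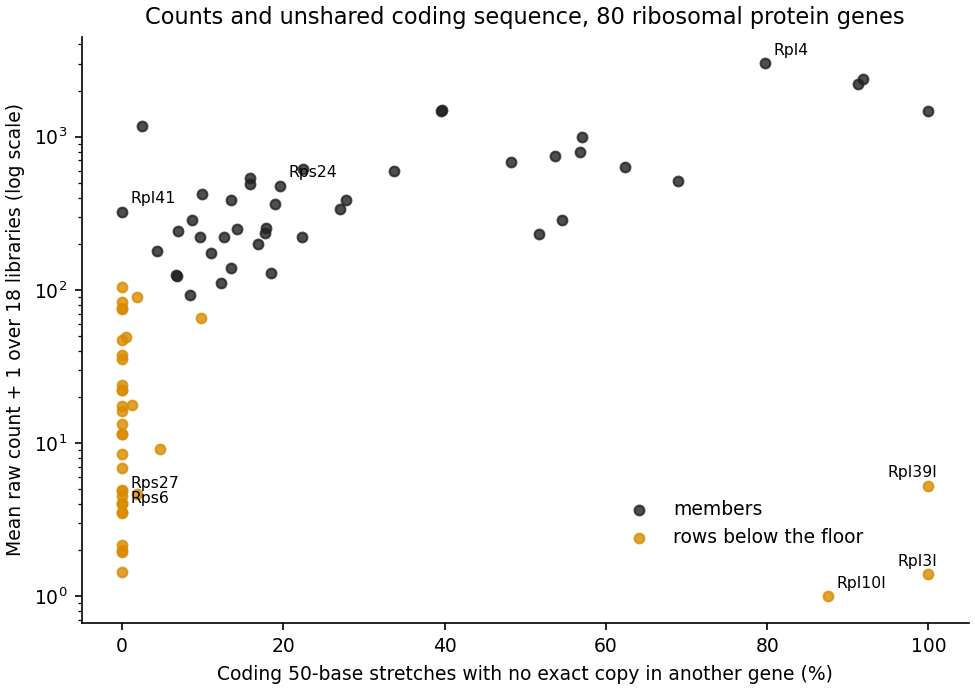
Mean raw count over the 18 libraries (plus 1, log scale) against the percent of coding 50-base stretches with no exact copy in another gene, for the 80 ribosomal protein rows with a coding transcript; dark points are members and orange points are rows below the floor. Of the rows below the floor 28 of 37 sit at 0%, and Rpl4, at 79.7%, has the highest mean count.

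The floor lies where counts were lowest, and for 40 of the 43 members the lowest raw count was in a library of 8 h of LPS. Rpl35 (lowest count 56) and Rps18 (59) were just inside it, and Rpl15 (46) and Rps25 (41) just outside. The floor therefore leaves out rows whose counts dropped after LPS. A mean of 50 counts in place of 50 in every library, a choice made after seeing the data, would add Rpl27a, Rpl13, Rps25, Rpl29, Rpl15 and Rps28. None of the 6 passed the test at 8 h of LPS under TMM. Of these, Rpl27a had the lowest log2 fold change, −0.35 ± 0.18 (adjusted p = 0.107), and Rps28 the highest, 0.31 ± 0.18 (adjusted p = 0.163). As shares of the summed member counts over the LPS times, 2 of the 6 passed and were lower, Rpl27a at −0.52 (adjusted p = 0.023) and Rps25 at −0.47 (adjusted p = 0.041). Members also share exon bases with other annotated genes in 18 cases, in 8 of them with a gene on the opposite strand, such as Wdr38 at Rpl35. The kit marks strand, but the strand setting of the counting is not given in the sources used here.

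The family as a whole took a falling share of all counts after LPS, while its level against the typical gene stayed near that of unstimulated cells. In RelA-TA-KI libraries the members held 0.530% of all counts before stimulation and 0.531%, 0.518%, 0.415% and 0.295% at 0.5, 1, 3 and 8 h of LPS. In WT libraries they held 0.551% before stimulation and 0.506%, 0.524%, 0.434% and 0.333% at those times. Both 8 h LPS libraries lay below all 16 others. After TNF the RelA-TA-KI shares were 0.531%, 0.535%, 0.495% and 0.450%, and the WT shares 0.541%, 0.552%, 0.536% and 0.452%, so the shares at 8 h of TNF were below those of unstimulated cells but above those at 8 h of LPS.

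The size of this difference depends on what a library is scaled to. TMM scaling, the main scaling here, sets the bulk of genes to no change between libraries, and CPM below are counts scaled to a common library size with TMM factors, in the usual CPM unit. On this scale the summed member level was 4564 CPM in unstimulated RelA-TA-KI cells and 4757, 4858, 5272 and 5185 CPM at 0.5, 1, 3 and 8 h of LPS. In WT cells it was 4579 CPM before stimulation and 4455, 4844, 5128 and 5085 CPM at those LPS times. At 8 h of LPS the sum was thus 1.14 times that of unstimulated cells in RelA-TA-KI and 1.11 times in WT under TMM, but 0.556 and 0.603 times under library totals. The TMM factors of these libraries were the lowest of all, 0.568 in RelA-TA-KI and 0.654 in WT, against at most 1.20 elsewhere. Under library totals the median of all 11308 tested genes at 8 h of LPS moved to −0.99 on the log2 scale, against −0.04 under TMM. The members' median moved with it, to −0.84 under library totals against 0.12 under TMM. After TNF the summed level was 4648, 4796, 4800.2 and 4685 CPM in RelA-TA-KI and 4653, 4769.5, 4728 and 4399 CPM in WT cells.

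**Figure D2:**
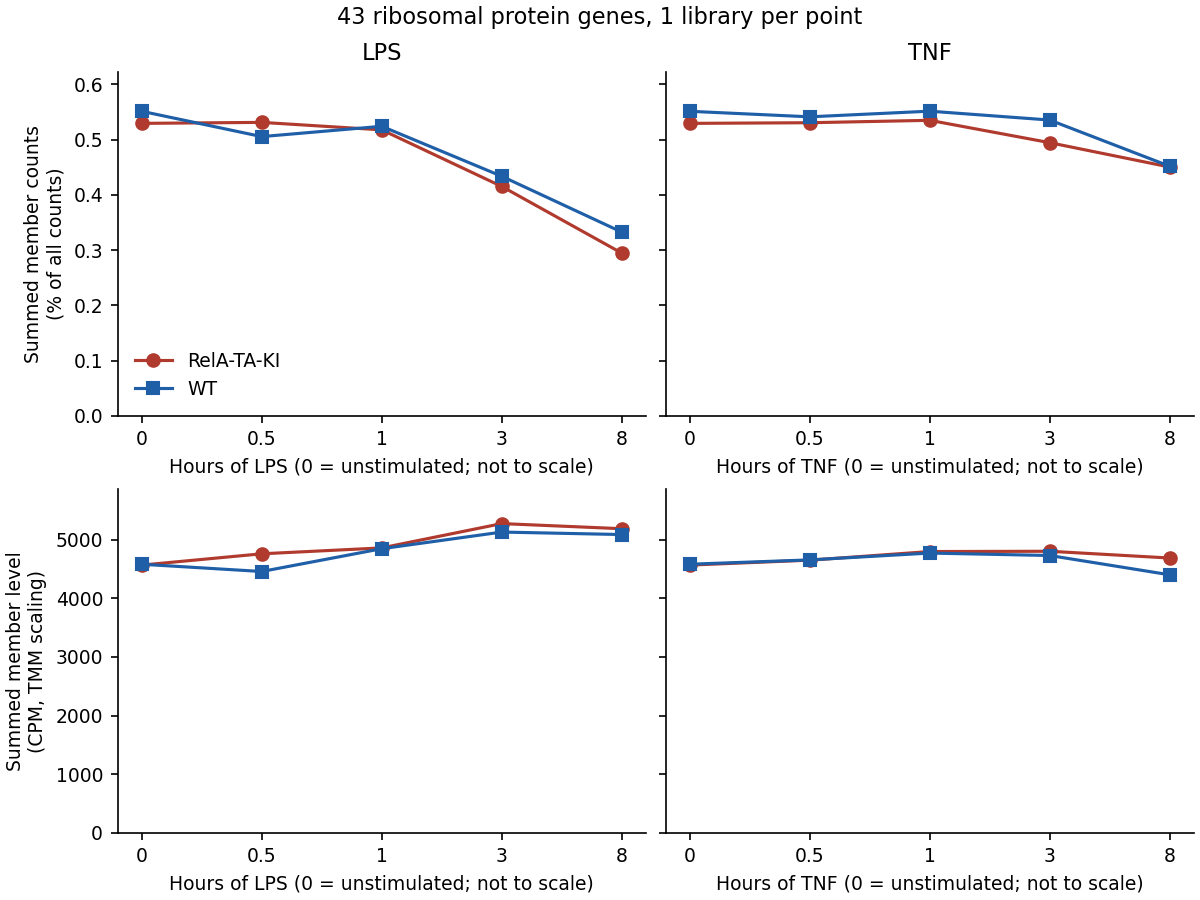
Summed counts of the 43 members as a percent of all counts (upper row) and summed level in CPM under TMM scaling (lower row), by hours of LPS (left) and TNF (right), with 1 library per point. The upper LPS curves end at 0.295% in RelA-TA-KI and 0.333% in WT cells, while the lower LPS curves end at 5185 and 5085 CPM, above the unstimulated 4564 and 4579 CPM.

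Under TMM scaling the coefficient of variation of a member's level over the 18 libraries had a median of 8.38%, and 33 of 43 members were under 10%. Rps3, a protein at the mRNA entry site of the small subunit, had the lowest, 4.27%. Its levels were 418 CPM before stimulation, 437, 438, 475 and 453 CPM after LPS and 432, 439, 441 and 438 CPM after TNF in RelA-TA-KI cells. In WT cells they were 428 CPM, 393, 440.0, 453 and 424 CPM, and 407, 422, 431 and 415 CPM, so that no condition stood apart. Its log2 change at 8 h of LPS was 0.05 ± 0.08 (edgeR quasi-likelihood, adjusted p = 0.567). Only 4 members exceeded 15%, among them Rps24 (27.8%), Rps20 (18%) and Rpl41 (15.8%).

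Rpl4, which lines the exit tunnel of the large subunit, and Rpl8, near its catalytic centre, were with Rps3 the 3 most counted members. Rpl4 had 527 CPM before stimulation, 531, 584, 634 and 530.2 CPM after LPS and 533, 558, 559.6 and 489 CPM after TNF in RelA-TA-KI cells. In WT cells Rpl4 had 542 CPM, 535, 593, 566 and 488 CPM, and 554, 574, 536 and 484 CPM. Its highest values were at 1 and 3 h, except in WT cells with TNF, where they were at 0.5 and 1 h. The 8 h values came back to or below those of unstimulated cells. Rpl8 had 395 CPM, 401, 408, 439 and 403 CPM, and 376, 404, 420.2 and 399 CPM in RelA-TA-KI cells, in the same order. In WT cells Rpl8 had 396 CPM, 369, 408, 435 and 379.6 CPM, and 408, 404, 401 and 364 CPM. At 8 h of LPS neither passed the test, with log2 changes of −0.07 ± 0.08 for Rpl4 (adjusted p = 0.465) and −0.01 ± 0.08 for Rpl8 (adjusted p = 0.884).

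LPS changed single members in both directions around this level. A gene is called here when its adjusted p is below 0.05 in edgeR's quasi-likelihood test, with Benjamini-Hochberg adjustment over all 11308 genes tested. Changes are log2 fold changes with both genotypes together, and their standard errors were worked back from the test. At 8 h of LPS 13 members rose and 6 fell against unstimulated cells under TMM, where 33.8% of all tested genes rose and 33.9% fell. Of the 43 members the share that rose was thus near that of all genes, and the share that fell was below it. The floor leaves out rows whose counts dropped after LPS, and the tested genes as a whole met no such floor. The lower share that fell is therefore no result about the family. Over the 4 LPS times together (an F test, direction at the time of the largest change) 13 members rose and 5 fell, against 35.8% and 36.4% of all genes. Single libraries moved these counts by more than 1.5 times. At 8 h 6 rose without the unstimulated RelA-TA-KI library and 3 fell without the unstimulated WT library. Over the 4 times 7 or 8 rose without either unstimulated library, the WT 0.5 h LPS library or the RelA-TA-KI library of 1 h of LPS, 3 h of LPS or 3 h of TNF. Only 2 fell over those times without the WT 1 h or 8 h LPS library. Over those times 3 fell without either unstimulated library, either 1 h or 8 h TNF library, or the RelA-TA-KI 1 h or 8 h LPS library. Under library totals none rose and 39 fell over the 4 times, where 69.4% of all genes fell. On that scale none rose and 40 fell at 8 h of LPS, where 67.7% of all genes fell, and Rps24 and Rpl41 were among the 3 that did not pass. By subunit, at 8 h, 7 of 25 large-subunit members rose and 3 fell under TMM, with a median of 0.14, and 6 of 18 small-subunit members rose and 3 fell, with a median of 0.09. At 8 h of LPS summed neutrophil markers were at 123.6 CPM in RelA-TA-KI and 220.0 CPM in WT cells. In unstimulated cells the sums were 62.3 and 129 CPM. Of 6 tested neutrophil markers 2 were called higher under TMM, S100a8 and S100a9, and 0 lower. Camp and Ltf were above 0 and Elane and Mpo below 0, without passing. The sum therefore does not stand for all of these markers, and their part in the members' changes was not tested.

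**Figure D3:**
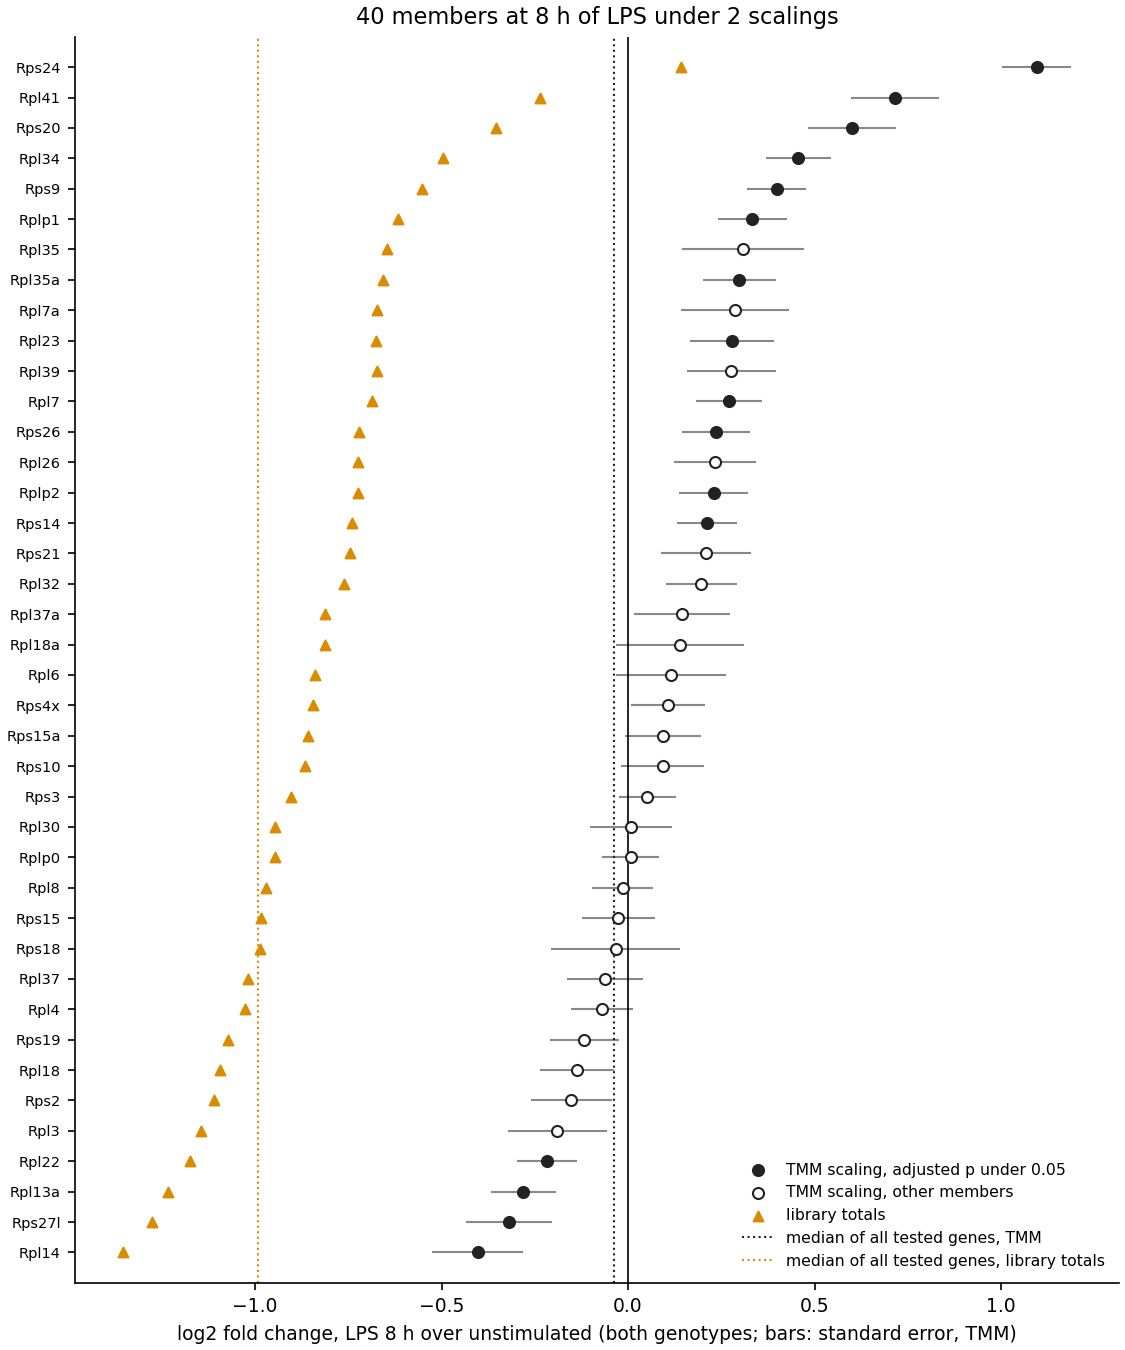
Log2 fold change of 40 members at 8 h of LPS against unstimulated cells, both genotypes together, under TMM scaling (circles, filled where the adjusted p is below 0.05, bars are standard errors) and under library totals (triangles); dotted lines mark the medians of all tested genes. Rps24 stands at 1.10 under TMM and at 0.14 under library totals.

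Rps24 was among the members that changed most. Rps24 (chromosome 14, 24490681 to 24496146, plus strand, mm10), a small-subunit protein mutated in some human families with Diamond-Blackfan anaemia, had 71.8 CPM before stimulation and 81.0, 87.1, 93.2 and 160.1 CPM after LPS in RelA-TA-KI cells. In WT cells Rps24 had 75.6 CPM before stimulation and 77.3, 76.8, 95.5 and 155 CPM after LPS. With TNF it had 77.9, 84.0, 83.4 and 75.3 CPM in RelA-TA-KI and 84.8, 79.6, 88.6 and 82.5 CPM in WT cells. Only the 8 h LPS pair was far from the rest. Its log2 change was 0.10, 0.15, 0.36 and 1.10 at the 4 LPS times, with a standard error of 0.09 and an adjusted p of 1.7e-07 at 8 h. Under library totals its 8 h change was 0.14 ± 0.10 (adjusted p = 0.214), so Rps24 kept about its share of all counts, with 67.7% of genes called lower. Of the Rps24 stretches 19.6% have no exact copy, and 14 other genes share stretches with it when 1 mismatch is allowed.

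Rpl41, Rps20 and Rpl34 rose as well under TMM. Rpl41, a very short basic protein, had 45.3 CPM before stimulation and 59.5, 55.5, 68.1 and 79.9 CPM after LPS in RelA-TA-KI cells, and 50.7 CPM and 48.8, 54.2, 66.6 and 78.7 CPM in WT cells. It rose by 0.72 ± 0.12 at 8 h under TMM (adjusted p = 1.0e-04), and was at −0.24 ± 0.13 under library totals (adjusted p = 0.108). Rps20, a protein of the small subunit's head, had 45.3 CPM before stimulation and 45.9, 40.8, 51.9 and 68.4 CPM after LPS in RelA-TA-KI cells, and 40.5 CPM and 41.5, 42.8, 52.6 and 61.6 CPM in WT cells. It rose by 0.60 ± 0.12 under TMM (adjusted p = 4.6e-04) and fell under library totals, at −0.36 ± 0.13 (adjusted p = 0.019). Rpl34 of the large subunit had 61.6 CPM and 67.0, 73.3, 82.3 and 80.8 CPM in RelA-TA-KI cells, and 58.7 CPM and 69.0, 72.0, 73.2 and 84.2 CPM in WT cells. Its LPS values were all above the unstimulated ones of the same genotype, and so were its TNF values. With TNF its log2 ratios to unstimulated cells were 0.11 to 0.28 in RelA-TA-KI and 0.13 to 0.30 in WT cells under TMM. At 8 h of LPS Rpl34 rose by 0.46 ± 0.09 under TMM (adjusted p = 3.7e-04) and fell under library totals, at −0.50 ± 0.10 (adjusted p = 4.0e-04). Leaving out any 1 of the 18 libraries kept the TMM calls at 8 h of Rps24, Rpl41, Rps20, Rpl34 and Rps9, with adjusted p of at most 0.0087. Rps9, near the mRNA entry of the small subunit, rose by 0.40 ± 0.08 (adjusted p = 5.0e-04).

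The acidic stalk of the large subunit, which recruits elongation factors, is formed by Rplp0 as its base with Rplp1 and Rplp2. Rplp0 had 256 CPM before stimulation, 282, 274, 281 and 254 CPM after LPS and 254, 269.9, 283 and 259 CPM after TNF in RelA-TA-KI cells. In WT cells Rplp0 had 261 CPM, 265, 286, 299 and 266 CPM, and 268, 293, 282 and 269 CPM, and its 8 h LPS change was 0.01 ± 0.08 (adjusted p = 0.936). Rplp0 thus stayed within a narrow range. Rplp1 had 247 CPM, 279, 257, 295 and 299 CPM, and 265, 259, 270.3 and 288 CPM in RelA-TA-KI cells, and 252 CPM, 243, 264, 284 and 329 CPM, and 260.5, 260.3, 267 and 247 CPM in WT cells. It rose by 0.33 ± 0.09 at 8 h of LPS under TMM (adjusted p = 0.0059) and fell under library totals, at −0.62 ± 0.10 (adjusted p = 8.6e-05). Its TMM call was lost without the WT 8 h LPS library, at 0.20, or without the unstimulated RelA-TA-KI library, at 0.29. Rplp2 had 106 CPM, 118, 113, 125 and 118 CPM, and 109.8, 109, 100.1 and 118 CPM in RelA-TA-KI cells, and 97.1 CPM, 98.4, 109.7, 115 and 120.0 CPM, and 113, 106, 99.6 and 100.2 CPM in WT cells. It rose by 0.23 ± 0.09 under TMM (adjusted p = 0.042), a call that was lost in 14 of the 18 fits that left out 1 library.

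The other members that rose at 8 h of LPS under TMM were Rpl35a, Rpl23, Rpl7, Rps26 and Rps14, by 0.21 to 0.30, and all 5 fell under library totals. Their TMM calls were lost in 2 (Rpl7), 3 (Rpl35a), 4 (Rps14), 9 (Rpl23) and 10 (Rps26) of the 18 fits that left out 1 library. Over the 4 times Rpl35, Rpl23, Rps15a and Rps14 had their largest change at 3 h, with values of 0.28 to 0.44.

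The 6 members that fell under both scalings came from both subunits, and 4 of them are described here. Rpl14 of the large subunit had 40.5 CPM before stimulation and 39.6, 42.0, 41.4 and 26.8 CPM after LPS in RelA-TA-KI cells, and 40.0 CPM and 39.8, 41.3, 39.8 and 34.2 CPM in WT cells. It fell by 0.40 ± 0.12 at 8 h (adjusted p = 0.0095), but without the RelA-TA-KI 8 h LPS library the change was −0.24 and no longer passed (adjusted p = 0.155). Both 8 h LPS values lay below all earlier ones of the same genotype. Rps27l, a paralogue of Rps27 that is a target of p53, had 44.6 CPM and 37.5, 36.5, 41.1 and 34.8 CPM in RelA-TA-KI cells, and 42.1 CPM and 40.5, 46.9, 40.2 and 34.5 CPM in WT cells. It fell by 0.32 ± 0.12 (adjusted p = 0.026), a call lost without the WT 8 h LPS library (−0.31) or the unstimulated RelA-TA-KI library (−0.24).

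Rpl13a is known from human monocytic cells to leave the ribosome after interferon-gamma and silence inflammatory mRNAs. It had 223 CPM and 221, 214, 231 and 173 CPM in RelA-TA-KI cells, and 217 CPM and 195, 223, 208 and 189 CPM in WT cells. Rpl13a fell by 0.28 ± 0.09 (adjusted p = 0.011), which ended without the RelA-TA-KI 8 h LPS library, at −0.23. Its row shares 621 exon bases with another gene model on its strand, Gm45713, and 2.5% of its coding stretches have no exact copy. Rpl22, a large-subunit protein with the paralogue Rpl22l1, had 90.2 CPM and 93.1, 96.3, 87.3 and 81.1 CPM in RelA-TA-KI cells, and 91.9 CPM and 89.8, 99.8, 93.2 and 75.5 CPM in WT cells. Rpl22 fell by 0.22 ± 0.08 (adjusted p = 0.027), and its call was lost without either unstimulated library or without the WT 8 h LPS library, at −0.20 to −0.23. In each of the 4 the 8 h LPS values were below the unstimulated ones in both genotypes.

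Over all members the 8 h LPS library was above the unstimulated one in both genotypes for 22, below it in both for 10 and moved oppositely for 11, under TMM. Single-pair log2 ratios at 8 h of LPS ran from −0.59 to 1.16 in RelA-TA-KI (median 0.12) and from −0.33 to 1.15 in WT cells (median 0.09). At 3 h of LPS 35 were above in both, 2 below in both and 6 opposite. All members of a library share 1 scaling factor, and these counts were not set beside those of all genes, so they do not show a rise particular to the family. Members' changes at 8 h had a Spearman's rho of 0.00 with the share of sequence free of copies, of −0.00 with the mean count and of −0.35 with coding length, over 43 genes that share these libraries.

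Another scaling sets each member against the summed counts of all 43 in its library, so that a change means a change of its share of the family whatever the rest of the transcriptome did. Over the 4 LPS times 4 members took a larger share and 7 a smaller one, with 30.0% and 43.6% of all tested genes called higher and lower on this scale. Rps24 took 3.09% and 3.05% at 8 h of LPS, against 1.57% and 1.65% before stimulation. The largest log2 changes of share were at 8 h in each case, among them 0.93 for Rps24 (adjusted p = 3.9e-06), 0.55 for Rpl41 (adjusted p = 0.0037) and 0.43 for Rps20 (adjusted p = 0.0069). The share call of Rps20 was lost without the RelA-TA-KI 8 h LPS library, at 0.40.

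Shares that fell included those of Rpl14, by 0.57 (adjusted p = 0.0062), Rps27l, by 0.49 (adjusted p = 0.021), Rpl13a, by 0.45 (adjusted p = 0.0030), and Rpl22, by 0.38 (adjusted p = 0.0027). That of Rpl4 fell by 0.24 (adjusted p = 0.048), and its call was lost in 14 of the 18 fits that left out 1 library. The share call of Rps27l was lost without the unstimulated RelA-TA-KI library or without either 8 h LPS library, with an adjusted p of up to 0.0975 and a change of −0.38 without the unstimulated one. Without the RelA-TA-KI 8 h LPS library the share of Rpl14 was at −0.37 and no longer passed, and without either 8 h LPS library the number of shares that fell was 4.

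**Figure D4:**
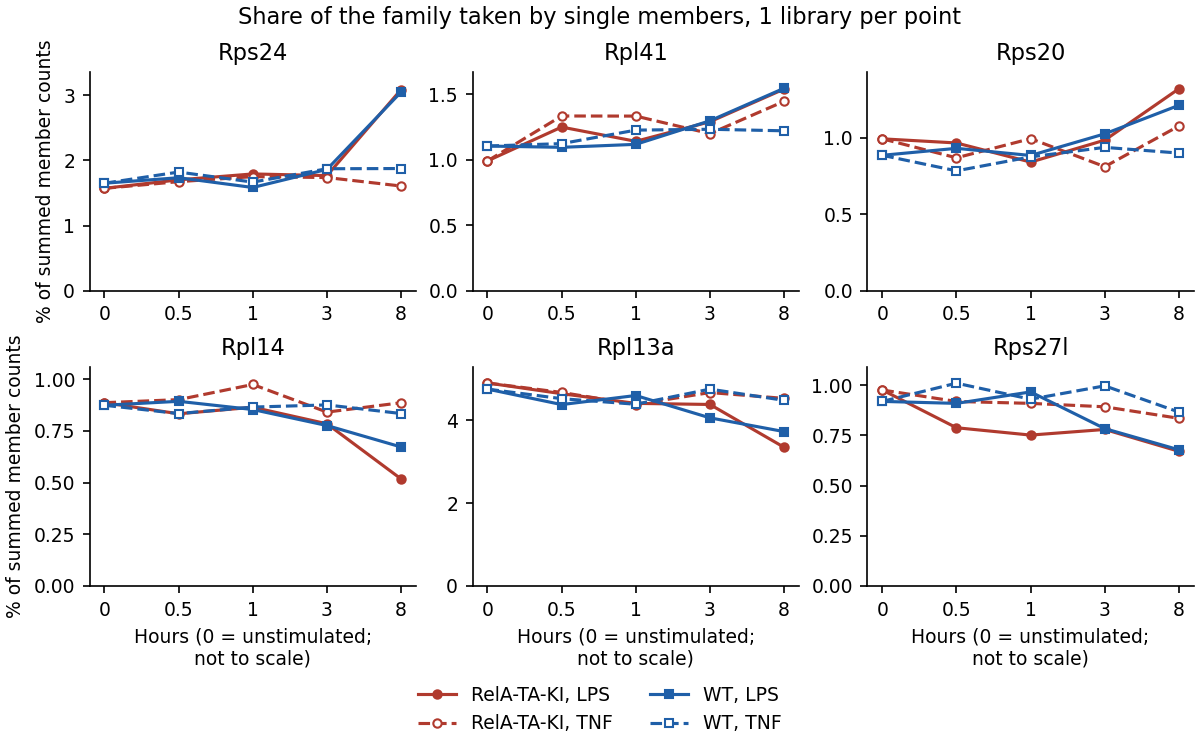
Percent of the summed member counts taken by 6 members, by hours of LPS (solid, filled) or TNF (dashed, open) in RelA-TA-KI (circles) and WT cells (squares), with 1 library per point; each panel has its own axis from 0. Rps24 reaches 3.09% in RelA-TA-KI and 3.05% in WT cells at 8 h of LPS, and Rpl14 0.518% and 0.672%, while the TNF curves of both stay near the unstimulated values.

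After TNF almost no member passed the test against unstimulated cells. Over the 4 TNF times no member was called by edgeR's quasi-likelihood test under TMM, where 30.4% of all genes were, and DESeq2 and limma-voom called none either. Under library totals 8 fell over these times, where 25.2% of all genes fell. Under TMM there was 1 at an unadjusted p under 0.05. At 8 h of TNF 1 member was called, against 32.0% of all genes. This was Rpl41, at 62.1, 64.0, 57.6 and 67.8 CPM at the 4 TNF times in RelA-TA-KI and 52.3, 58.6, 58.4 and 53.8 CPM in WT cells, with 45.3 and 50.7 CPM before stimulation. Its change at 8 h was 0.33 ± 0.12 (adjusted p = 0.044), was 0.08 ± 0.13 under library totals (adjusted p = 0.653), and was lost in 11 of the 18 fits that left out 1 library. The WT value at 8 h of TNF lay within the range of the other WT libraries. The members' median change at 8 h of TNF was 0.01 and that of all genes −0.00 under TMM. Under library totals the medians were −0.24 and −0.25, and 19 members fell, with 31.0% of all genes called lower. No share of the family was called after TNF, where 30.2% of all genes were, with 0 at an unadjusted p under 0.05 and 0 by limma-voom.

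LPS and TNF responses are set against the same unstimulated libraries, so the stimuli were also compared directly at matched times, a contrast that does not use those libraries. On average over the 4 times 9 members were higher after LPS than after TNF and 1 was lower under TMM, against 23.7% and 25.2% of all genes. Without the RelA-TA-KI 3 h library of LPS or of TNF 5 were higher. Under library totals none was higher and 40 were lower, where 10.4% of all genes were higher and 62.4% lower. Rps24 was higher after LPS by 0.27 ± 0.05 (adjusted p = 2.8e-04), in 6 of 8 matched pairs, and Rps20 by 0.24 ± 0.06 (adjusted p = 0.0045), in 7 of 8. Under library totals Rps24 was at −0.032 ± 0.052 and Rps20 at −0.069 ± 0.064, and neither passed. Rps9, Rpl7, Rpl34 and Rps14 were higher after LPS by 0.12 to 0.14 under TMM and lower by 0.17 to 0.18 under library totals. The TMM calls of Rpl7, Rpl34 and Rps14 were each lost in 7 or 8 of the 18 fits that left out 1 library.

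Rpl35a, a large-subunit protein affected in some human patients with Diamond-Blackfan anaemia, had 49.0, 42.0, 52.8 and 55.7 CPM after LPS against 43.8, 44.4, 43.1 and 45.5 CPM after TNF in RelA-TA-KI cells. In WT cells it had 44.5, 46.5, 51.7 and 51.9 CPM after LPS against 45.9, 41.7, 44.0 and 41.4 CPM after TNF. The 3 and 8 h pairs differed most, and the average difference was 0.17 ± 0.05 under TMM (adjusted p = 0.00995) and −0.14 ± 0.05 under library totals (adjusted p = 0.023). Rps4x, the X-linked form of the small-subunit protein, had 76.2, 79.1, 93.5 and 82.0 CPM after LPS against 76.8, 68.0, 77.4 and 79.9 CPM after TNF in RelA-TA-KI cells. In WT cells it had 73.4, 74.2, 88.5 and 86.1 CPM after LPS against 66.6, 74.9, 75.6 and 71.8 CPM after TNF. Its average difference was 0.14 ± 0.05 under TMM (adjusted p = 0.030) and −0.17 ± 0.06 under library totals (adjusted p = 0.015), and the TMM call was lost in 10 of the 18 fits that left out 1 library. Rps27l was the 1 member lower after LPS, by 0.15 ± 0.06 (adjusted p = 0.044), higher in 1 of 8 matched pairs, and was at −0.45 ± 0.06 under library totals. Its TMM call was lost in 11 of the 18 fits that left out 1 library. It had 37.5, 36.5, 41.1 and 34.8 CPM after LPS against 42.7, 43.6, 42.9 and 39.2 CPM after TNF in RelA-TA-KI cells. In WT cells it had 40.5, 46.9, 40.2 and 34.5 CPM after LPS against 47.0, 44.4, 47.2 and 38.1 CPM after TNF.

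As shares of the family, 3 members were higher after LPS than after TNF, among them Rps24 (0.20 ± 0.05, adjusted p = 0.0044) and Rps20 (0.16 ± 0.06, adjusted p = 0.032), and 7 were lower. Without 1 of 5 libraries (WT 0.5 or 3 h LPS, WT 1 or 3 h TNF, RelA-TA-KI 0.5 h TNF) 3 or 4 were lower. On this scale 18.3% of all genes were higher and 33.1% lower. The 7 included Rps27l (−0.22), Rpl3 (−0.20), Rpl14 (−0.19), Rpl22 (−0.15), Rpl18 (−0.13) and Rpl13a (−0.12), with adjusted p between 0.0048 and 0.045. The share calls of Rpl13a, Rps20 and Rpl18 were lost in 6, 9 and 15 of the 18 fits that left out 1 library, and that of Rpl3 without the WT 1 h TNF library. Rpl3, near the catalytic centre of the large subunit, had 30.2, 34.6, 31.3 and 30.1 CPM after LPS against 34.4, 31.6, 31.2 and 34.0 CPM after TNF in RelA-TA-KI cells. In WT cells Rpl3 had 29.1, 32.3, 28.3 and 29.0 CPM after LPS against 32.9, 37.7, 36.1 and 28.4 CPM after TNF. Its LPS and TNF values overlapped.

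No member was called between RelA-TA-KI and WT cells under TMM. This held over the 9 pairs by edgeR's quasi-likelihood test, where 19.7% of all genes were called, and DESeq2 and limma-voom called none. At an unadjusted p under 0.05 there were 4, which differed by 0.15 or less on the log2 scale. Among them Rps14 was at 0.09 ± 0.04 (adjusted p = 0.101), with the knock-in higher in 7 of 9 pairs. The members' median was 0.03 and that of all genes −0.00. Leaving out the RelA-TA-KI or the WT 8 h LPS library, Rps14 passed, at 0.11.

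Rpl39, a short protein of the large subunit's exit tunnel, was lower in RelA-TA-KI than in WT in 9 of 9 pairs. It had 22 CPM before stimulation, 20.4, 25.2, 25.4 and 23.9 CPM after LPS and 22.2, 26.9, 24.3 and 24.9 CPM after TNF in RelA-TA-KI cells. In WT cells Rpl39 had 23.8 CPM, 23.8, 25.9, 28.3 and 31.9 CPM, and 25, 30.1, 25.6 and 25 CPM. The pairs were close at 1 h of LPS and 8 h of TNF and farthest apart at 8 h of LPS. The difference was −0.15 ± 0.05 under TMM (adjusted p = 0.076). As a share of the family Rpl39 was the 1 member called, at −0.18 ± 0.06 (adjusted p = 0.042), where 19.4% of all genes were. That call was lost in 16 of the 18 fits that left out 1 library, and its raw counts were 81 to 202 per library. Under library totals 3 members were lower in the knock-in, with 16.1% of all genes lower, among them Rpl39 by 0.22 (adjusted p = 0.020) and Rplp0 by 0.13 (adjusted p = 0.034).

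Across single pairs the members' median log2 ratio of RelA-TA-KI to WT was −0.00 before stimulation, 0.08, 0.01, 0.03 and 0.04 at 0.5, 1, 3 and 8 h of LPS, and 0.03, 0.01, 0.00 and 0.11 at those times of TNF. Of the 43 members 33 were higher in the knock-in at 0.5 h of LPS and 33 at 8 h of TNF, and between 21 and 26 in the other 7 pairs. Under library totals these numbers were 31 and 23, and between 2 and 21 in the others, and in 6 of the 9 pairs the median was above 0 under TMM and below 0 under library totals. Counts by pair depend on the 1 scaling factor of each library and were not set beside those of all genes. Over the LPS pairs alone no member was called, against 9.99% of all genes, and over the TNF pairs alone none, against 5.32%, with 1 member each at an unadjusted p under 0.05. The difference of these effects between LPS and TNF called no member (0% of all genes), and the effect at 3 and 8 h against that at 0.5 and 1 h none (0.398% of all genes), with none at an unadjusted p under 0.05 in either. DESeq2 and limma-voom called no member in these 4 comparisons.

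Markers of other cells moved with genotype beside these values. Neutrophil markers summed to 62.3 to 191 CPM in RelA-TA-KI against 129 to 275 CPM in WT libraries, and 6 of the 6 tested were lower in the knock-in. Stromal markers summed to 13.6 to 71.3 CPM against 97.8 to 189 CPM, and 3 of the 3 tested were lower. Col1a1 and Col1a2 had mean raw counts of 235 and 279, and Col3a1, Dcn, Pdgfra and Lum of at most 4.8. Of 10 macrophage markers 4 were higher and 2 lower, and of 2 tested dendritic markers 0 were higher and 1 lower. Among all genes 10.3% were higher and 9.46% lower. The part of these markers in the members' genotype values was not tested.

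**Figure D5:**
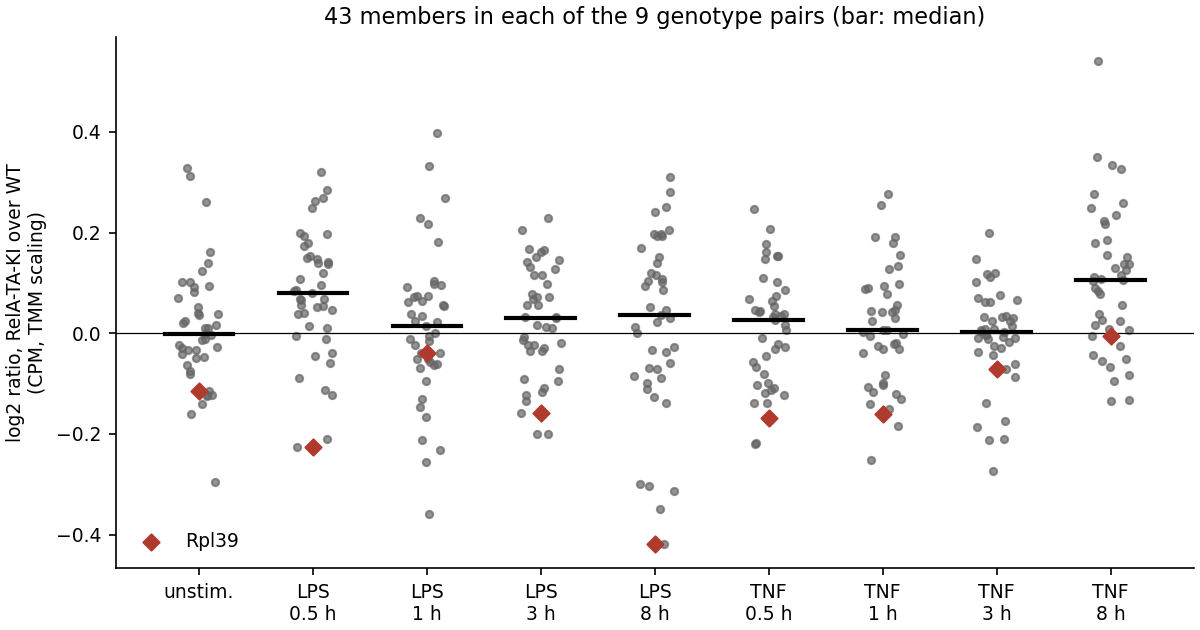
Log2 ratio of RelA-TA-KI to WT (CPM under TMM scaling) for each of the 43 members (grey points) in each of the 9 conditions, with the median as a bar and Rpl39 as a red diamond. Medians lie between −0.00 and 0.11, and Rpl39 lies below 0 in all 9 pairs.

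RefSeq promoter windows (GRCm38.p6) were at hand for 31 of the 43 members, some with several annotated starts, and a gene was counted if any start matched. For 8 of the 31 (25.8%) an annotated start was a C followed by at least 4 further letters C or T, against 3.01% of 27025 genes. Such a C with its run began within 10 bases of a start in 21 of 31 (67.7%), against 34.4% of all genes. The motif was searched on the transcribed strand only, and a match is a description of the letters. The first count rests on an annotated base being the true start, so a member without a match there cannot be said to lack the motif. The following windows run from 20 bases before the start to 20 from it, 5′ to 3′ on the strand of the gene with the pyrimidine run in capitals, and are shown because they hold the motif in a member that fell at 8 h of LPS (Rpl14), in 3 that rose under TMM at 3 or 8 h (Rpl35, Rpl35a and Rplp2) and in 1 called in no comparison under TMM (Rps18).
Rpl14, chr9:120571497-120571536, plus strand: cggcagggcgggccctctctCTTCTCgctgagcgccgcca
Rpl35, chr2:39005112-39005151, minus strand: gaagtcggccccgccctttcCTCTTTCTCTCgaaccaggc
Rpl35a, chr16:33056462-33056501, plus strand: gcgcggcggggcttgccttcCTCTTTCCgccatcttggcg
Rplp2, chr7:141447631-141447670, plus strand: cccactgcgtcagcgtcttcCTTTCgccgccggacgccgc
Rps18, chr17:33955646-33955685, minus strand: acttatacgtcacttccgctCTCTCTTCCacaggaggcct
The other 3 with the motif at a start were Rps10, Rps15a and Rps21, so it stood in members that rose under TMM, that fell and that were not called. Rpl35a and Rps21 also had annotated starts without it.

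Other genes of the translation machinery, on lists written with earlier results of these data known, changed in both directions at 8 h of LPS under TMM. On that scale 33.8% of all tested genes rose and 33.9% fell. Among 20 genes of translation factors and other known TOP mRNAs 4 rose and 7 fell, with a median of −0.00. The median of the members, which had to pass the floor, was 0.12. Pabpc1, the cytoplasmic poly(A)-binding protein, rose by 1.115 ± 0.080 (adjusted p = 3.5e-08), and Eef1a1, the main elongation factor, by 0.25 ± 0.08 (adjusted p = 0.011). Eif4b, an initiation factor that aids the helicase, fell by 1.35 ± 0.11 (adjusted p = 1.3e-07), and Npm1, a nucleolar chaperone of ribosome assembly, by 0.76 ± 0.10 (adjusted p = 1.6e-05). Under library totals 0 of the 20 rose and 19 fell, where 15.4% of all genes rose and 67.7% fell. Of 76 tested genes of mitochondrial ribosomal proteins, which serve the separate ribosome of that organelle, 13 rose and 34 fell, with a median of −0.28, and under library totals 2 rose and 65 fell. Of 5 tested ribosomal protein genes with other symbols none rose and Rpl7l1, a paralogue of Rpl7, fell by 0.43 ± 0.10 (adjusted p = 0.0022).

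Among 15 tested genes of translation control 4 rose and 8 fell at 8 h of LPS under TMM, where 33.8% of all genes rose and 33.9% fell. Under library totals 2 rose and 12 fell, where 15.4% of all genes rose and 67.7% fell. Larp1, which binds TOP mRNAs, rose by 1.65 ± 0.10 (adjusted p = 4.9e-09), and Eif2ak2, the interferon-induced kinase PKR, by 3.39 ± 0.12 (adjusted p = 4.6e-11). Eif2ak3, the kinase PERK of the unfolded protein response, fell by 2.55 ± 0.18 (adjusted p = 2.9e-08), and Eif4ebp1, an inhibitor of cap-dependent initiation, by 1.28 ± 0.14 (adjusted p = 2.5e-06). At 8 h of TNF the TOP list had 0 genes higher and 3 lower, the mitochondrial list 6 and 3, and the control list 2 and 1, where 17.1% of all genes were higher and 14.8% lower. Over the 9 genotype pairs these lists had 1 higher and 1 lower, 0 and 0, and 2 and 1, where 10.3% of all genes were higher and 9.46% lower.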

How the data were processed

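Poly(A) RNA was sequenced as single ends of 50 bases after KAPA Stranded mRNA-Seq library preparation, per the labels' protocols. The submitters' processing notes name cutadapt 1.12, STAR, featureCounts 1.5.0, DESeq2 and the mm10 build. The authors deposited raw gene counts, not normalized, for 18 libraries. The annotation release and the counting options for strand and multiple matches were not given in the sources used here. Values were checked to be whole numbers, and no columns were identical.

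Tests used edgeR 4.0.16 under R 4.3.3 (robust quasi-likelihood fits, TMM factors, Benjamini-Hochberg over all genes, threshold 0.05). Filtering by filterByExpr (count 10, total 15) left 11308 genes. Condition entered as a block and genotype as a term, leaving 8 residual degrees of freedom (6 for genotype effects by stimulus or phase), and the common biological coefficient of variation was 0.111. All comparisons were fitted on the whole table. Shares of the family used the members' summed counts as library size. Alternatives were DESeq2 size factors, library totals, medians of member ratios, no filter, a filter of 1 CPM in 9 libraries, members with 200 counts in every library, DESeq2 1.42.0, limma-voom (limma 3.58.1) and leaving out each library. A floor of 50 mean counts was added after seeing the data.

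The members and lists were chosen with earlier results of these data known. Named members were the 3 most counted, Rplp0, Rplp1, Rplp2, those whose symbol ends in l, and up to 5 with the largest called change in each direction of a comparison. A few members picked by it were left out of the text but count in every total. With 1 library per condition and genotype, total counts of 4663650 to 6721917 set the precision.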

Additional observations from a re-analysis of the deposited data

Results flagged for a closer look

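The 39 rows that fit the symbol rule but lie below the floor were in no comparison. They were not empty, and together held between 397 and 1262 raw counts per library, beside 15767 to 37067 for the members. Of these 39 rows 19 had a mean under 10 counts, and 2, Rpl10l and Rpl6l, were at 0 in every library. No group of libraries was large enough for a test of single outlying values, since each condition has 1 library per genotype.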

How the results depend on the processing

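Scaling changed more calls than any other choice. Under library totals no member rose over the LPS times, at 8 h of LPS, at 8 h of TNF or in LPS against TNF (0 each), and 39, 40, 19 and 40 fell in those, where 69.4%, 67.7%, 31.0% and 62.4% of all genes fell, with 8 over the TNF times (25.2% of all genes) and 3 by genotype (16.1%). At 8 h of LPS 2 members were above 0 under library totals, against 28 under TMM, and the changes that turned included those of Rps9 (−0.55), Rplp1 (−0.62), Rps14 (−0.74), Rps26 (−0.72), Rplp2 (−0.72), Rps20 (−0.36), Rps3 (−0.90), Rpl7 (−0.69), Rpl35a (−0.66), Rpl34 (−0.50), Rplp0 (−0.95), Rpl23 (−0.68) and Rpl41 (−0.24). For LPS against TNF 1 member was above 0 under library totals, against 34 under TMM, and the differences that turned included those of Rps9 (−0.17), Rps14 (−0.18), Rps24 (−0.032), Rps20 (−0.069), Rps4x (−0.17), Rpl7 (−0.17), Rpl35a (−0.14) and Rpl34 (−0.18). The median of all genes moved to −0.99 under library totals at 8 h of LPS, against −0.04 under TMM. With DESeq2 size factors 2 members fell over the LPS times and 0 were lower in LPS against TNF.

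Without a filter on low counts, when more genes are tested, members that rose numbered 7 over the LPS times, 7 at 8 h of LPS, 0 at 8 h of TNF and 3 in LPS against TNF, and 2 fell over the LPS times, 0 were lower in LPS against TNF, 4 shares were lower in LPS against TNF and 0 by genotype. The filter of 1 CPM gave 3 that fell over the LPS times. DESeq2's test gave 0 that fell over the LPS times, 3 that fell at 8 h of LPS, 0 that rose at 8 h of TNF and 0 lower in LPS against TNF. Scaling to the median of member ratios gave 4 smaller shares after LPS and 4 in LPS against TNF. Of the members with 200 counts 3 fell over the LPS times, 3 at 8 h of LPS and 0 were lower in LPS against TNF, from fewer members. The mean floor of 50 gave 1 that rose over the TNF times, Rps28 at 0.59 and 0.5 h (adjusted p = 0.030), and 1 larger share after TNF. Except where a construction is named, the cause was not tested.

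Leaving out 1 library at a time, where the lone library left is assumed to vary as the others, gave 7 to 13 that rose and 2 to 5 that fell over the LPS times, and 6 to 12 and 3 to 6 at 8 h of LPS (6 without the unstimulated RelA-TA-KI and 3 without the unstimulated WT library). It gave 0 to 1 and 0 to 1 at 8 h of TNF, where Rps18 fell at −0.70 without the RelA-TA-KI 8 h TNF library and 1 other member fell without the RelA-TA-KI 8 h LPS library. LPS against TNF gave 5 to 9 higher (5 without the RelA-TA-KI 3 h library of LPS or of TNF) and 0 to 2 lower, and genotype 0 to 1 higher. Shares gave 3 to 4 higher and 4 to 7 lower after LPS, 2 to 3 and 3 to 6 in LPS against TNF, and 0 to 2 lower by genotype. Genotypes were paired by condition throughout. A fit with a replicate block could not be made, since each genotype had 1 library per condition. The lowest single-library raw counts, which limit precision, were those of Rpl35 (56), Rps18 (59), Rpl7a (67) and Rpl6 (68).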
